A study of Macaca fascicularis with 1862 samples.

Results

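The cells described here are the trophoblast cells of cynomolgus monkey (Macaca fascicularis) embryos in culture. They were chosen by the authors' deposited cell type alone: every cell named CTB, EVT or STB was taken, which gave 674 of 1862 cells. All embryos were labelled wild type (WT) and in vitro. By these labels the 8 groups differ in embryonic day only: E16, E18, E20, E21, E22, E23, E24 and E25, counted from sperm injection at E0. Per the labels' protocols, blastocysts were taken into extended culture, tissue outside the embryo proper was dissected off, and single cells of the remaining bodies were picked by hand for scChaRM-seq, which makes an RNA library and a bisulfite-converted DNA library from the same cell. The trophoblast described here is therefore what remained after that dissection and was picked, and not the trophoblast of a whole embryo. The sample titles carry an embryo number from 1 to 12, but each number holds cells of 1 cell type only and occurs on 3 to 8 days, and that of EVT occurs on all 8, so it follows the cell type and was not taken to name an embryo. With no other name for the embryo or animal of a cell, each day is 1 sample, no test between days was made and the intervals below cover counting error only.

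Trophoblast is the outer lineage of the blastocyst and builds most of the placenta. CTB, by usual use cytotrophoblast, is the dividing progenitor layer. It gives rise along one route to STB, the syncytiotrophoblast, a multinucleate layer formed by cell fusion that exchanges nutrients with the mother and secretes hormones, and along another to EVT, the extravillous trophoblast, which leaves the villi and invades maternal tissue. The deposited table holds no expression or methylation value, so these names could not be checked against marker genes and stand as the authors gave them.

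The identifiers show which cells were handled together. Cells with the same RNA identifier up to its final well number form an RNA plate in what follows, and the plates of each day are numbered in the order of their identifiers. The first part of the RNA identifier joins plates into sets. The trophoblast cells of E16, E18, E20 and E23 came from sets that held trophoblast of no other day. For these days, day and set cannot be told apart. E21, E22, E24 and E25 shared sets. Trophoblast cells lay in 41 of 44 plates, with 1 to 63 such cells in a plate, and the 3 plates without any were all of E16. Among these 41 plates, 38 held CTB, 38 held EVT and 27 held STB, and all 3 subtypes occurred together in 26. The DNA libraries form a first series (batches 1 to 13, with 45.4% of trophoblast cells) and a second series (batches 14 to 21, with 54.6%). E18 is represented in the second series only. Of the 21 batches, 19 held trophoblast and batches 2 and 3 held none. Both series contributed to 27 plates. The subtype shares differed between the series. Shares over both series are given first, and those of each series follow.

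Over all days, EVT made up 55.8% of trophoblast cells (exact 95% interval 51.9 to 59.6), CTB 29.4% (25.96 to 32.97) and STB 14.8% (12.2 to 17.7). There were 1.90 EVT cells for each CTB cell, 1.29 in the first and 2.81 in the second series. For each STB cell there were 1.98 CTB cells, 3.61 in the first and 1.18 in the second series. EVT outnumbered each of the other subtypes in 15 of the 21 plates with at least 10 trophoblast cells, and CTB outnumbered STB in 16 of these 21. The days did not contribute evenly: E20, E24 and E23 held 31.6%, 22.8% and 19.1% of the trophoblast cells, while E16 held 27 cells, and E21 and E22 held 20 each. Of all EVT cells, 34.6% came from E20 and 25.3% from E24. STB was spread differently, with 27% of its cells from E23, 24% from E20 and 11% each from E16 and E25.

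**Figure D1:**
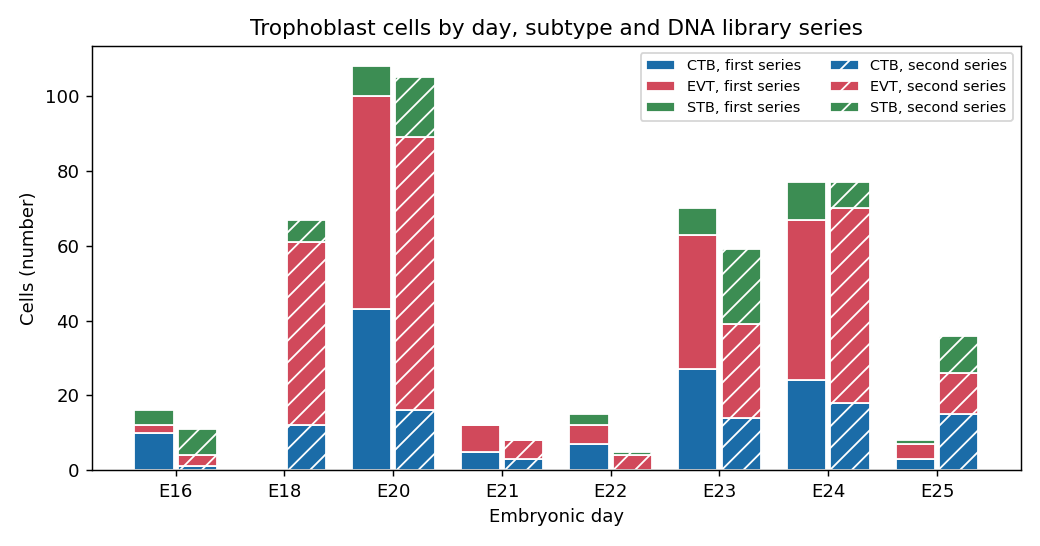
Number of trophoblast cells (vertical axis) on each embryonic day (horizontal axis), stacked by subtype, with plain bars for the first and hatched bars for the second DNA library series. E20 holds the most cells (31.6% of the total), E18 has second-series cells only, and E21 and E22 have 20 cells each in all.

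The first question was how the 3 subtypes divided the trophoblast on each day. Over both series, EVT, the invasive subtype, had the most cells from E18 to E24 and not at E16 or E25. At E22, E23 and E25 this order rests on few cells or on 1 plate. Without E23 plate 5, CTB was at 38.8% and EVT at 37.8% at E23. At E22, CTB was at 46.7% and EVT at 33.3% in the first series, and at 41.2% and 35.3% without plate 6, and both were at 38.9% without batch 8 or batch 15. At E25, EVT led among the 8 first-series cells. It also led, at 40.6% beside 37.5% CTB, without plate 4, which held all E25 trophoblast cells of batch 17. EVT and CTB were equal there without batch 19. At E16 only 5 of 27 trophoblast cells were EVT, beside 11 CTB and 11 STB cells. That is 18.5% EVT (6.30 to 38.1) and 40.7% each of CTB and STB (22.4 to 61.2). At E18 the 67 cells were 49 EVT, 12 CTB and 6 STB. EVT was thus at 73.1% (60.9 to 83.2), CTB at 17.9% (9.61 to 29.2) and STB at 8.96% (3.36 to 18.5). The EVT intervals of E16 and E18 lie well apart, but every E18 cell is of the second DNA series, and only 11 of the E16 cells are. Among those 11, 3 were EVT, 27.3% (6.02 to 60.97), an interval that meets that of E18.

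Over both series, E20 and E24 had nearly the same composition. The trophoblast cells of E20 were 130 EVT, 59 CTB and 24 STB, and those of E24 were 95 EVT, 42 CTB and 17 STB. EVT stood at 61.03% (54.1 to 67.6) and 61.7% (53.5 to 69.4), CTB at 27.7% (21.8 to 34.2) and 27.3% (20.4 to 35.03), and STB at 11.3% (7.35 to 16.3) and 11.04% (6.56 to 17.1). Inside the series the days were less alike, and stood in opposite order. CTB was at 39.8% at E20 and 31.2% at E24 in the first series and at 15.2% and 23.4% in the second, and STB at 7.41% and 12.99% in the first and at 15.2% and 9.09% in the second, with overlapping intervals each time. E23, between them in time, had a lower EVT and a higher STB share than either over both series. Its STB share was above both days in the second series only, at 33.9%, and at 10% in the first it lay between them. E23 held 61 EVT, 41 CTB and 27 STB cells. This gave 47.3% EVT (38.4 to 56.3), 31.8% CTB (23.9 to 40.6) and 20.9% STB (14.3 to 28.97), and each of these intervals overlaps that of E20 and of E24.

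E25, the last day, held 44 trophoblast cells, of which 18 were CTB, 15 EVT and 11 STB. CTB was at 40.9% (26.3 to 56.8), EVT at 34.1% (20.5 to 49.9) and STB at 25% (13.2 to 40.3), so no subtype stood apart from the others on that day. E21 and E22 gave few cells. E21 held 12 EVT and 8 CTB cells and no STB cell, which still allows an STB share of up to 15% by a limit of 3 cells (the exact upper bound is 16.8%). E22 held 9 EVT, 7 CTB and 4 STB cells, of which 4 EVT, 0 CTB and 1 STB were of the second series.

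**Figure D2:**
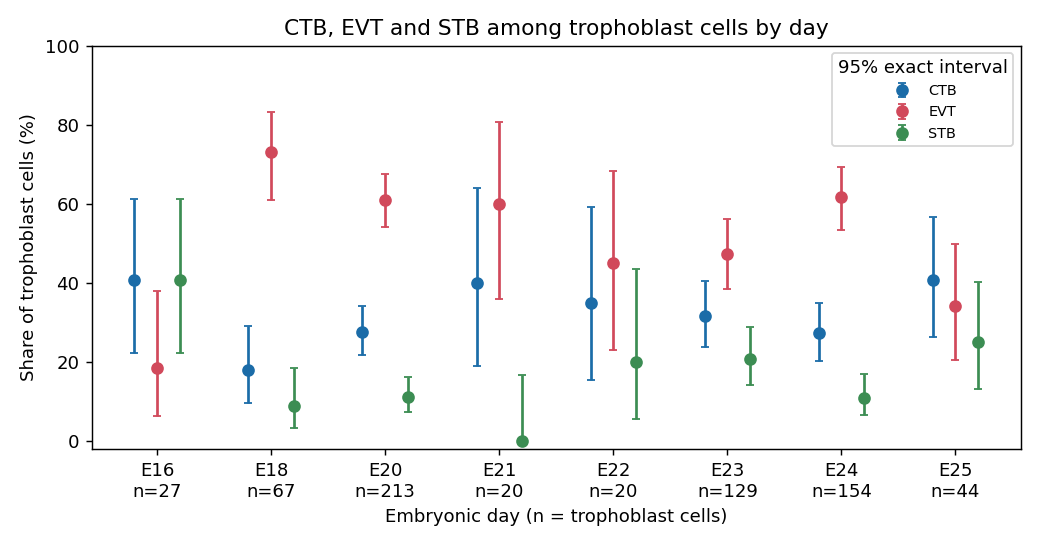
Share of trophoblast cells in percent (vertical axis) that were CTB, EVT or STB on each embryonic day (horizontal axis, with the number of trophoblast cells), points with exact 95% intervals for counting error. The EVT point is lowest at E16 (18.5%) and highest at E18 (73.1%), and the CTB intervals of all 8 days overlap.

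Each of the 28 pairs of days was described by whether the exact intervals overlap. For CTB, the progenitor subtype, 0 of 28 pairs were apart, with shares between 17.9% at E18 and 40.9% at E25. For EVT 8 pairs were apart: E16 was below E18, E20, E23 and E24, E25 was below E18, E20 and E24, and E23 was below E18. For STB 4 pairs were apart, all of them E16 above another day (E18, E20, E21 and E24). When each RNA plate and each DNA batch was left out in turn, 3 of the 8 EVT pairs stayed apart every time, namely E16 against E18, E20 and E24, and 0 of the 4 STB pairs did. These 3 EVT pairs did not hold in each series. In the second series alone all 3 overlapped, with E16 at 27.3% EVT of 11 cells (6.02 to 60.97). In the first, E16 was apart from E20 and E24, and E18 has no cells there. Without E16 plate 7 the E16 share of STB was 33.3% (13.3 to 59.01), and without E16 plate 6 it was 35.3% (14.2 to 61.7). Either omission ended all 4 STB pairs. E18 and E25 overlapped in 1 of these omissions, that of DNA batch 17, with 67.7% EVT at E18 and 40.6% at E25.

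The lower EVT share of E25 depended on single plates in the other pairs. Without E24 plate 2, EVT was at 53.1% at E24 (43.5 to 62.5), which overlaps E25. Leaving out E20 plate 5 gave 57.7% at E20 (49.9 to 65.3), and leaving out E25 plate 4 gave 40.6% at E25 (23.7 to 59.4), again with overlap. Leaving out batch 17, whose E25 trophoblast cells are those of E25 plate 4, ended both pairs in the same way. Without batch 10 (57.97% at E24) or batch 16 (56.6% at E24) the pair of E24 and E25 ended. E16 and E23 overlapped in 6 omissions of a plate and 6 of a batch. E18 and E23 overlapped without E18 plate 1 (69.6% at E18), E23 plate 6 (51.4% at E23), batch 14 (52.3% at E23) or batch 17 (67.7% at E18).

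Other pairs came apart when a plate was left out. Without E23 plate 5 the EVT share of E23 was 37.8% (28.2 to 48.1), below the intervals of both E20 and E24, and without E24 plate 3 that of E24 was 68.1% (57.5 to 77.5), above E23. EVT at E16 was below E21 without E16 plate 3 (15.4%) or E21 plate 2 (63.2% at E21). STB at E25, without E25 plate 2, was at 32.4% (17.4 to 50.5), above E20, E21 and E24, and STB at E18, without E18 plate 3, was at 4.17% (0.509 to 14.25), below E23. CTB at E25 was at 45.9% (29.5 to 63.1) without E25 plate 1, above E18.

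With STB set aside, E16 and E18 remained the lowest and the highest day over both series. Among CTB and EVT cells alone, EVT made up 31.25% at E16 (11.02 to 58.7), 80.3% at E18 (68.2 to 89.4), 68.8% at E20 (61.7 to 75.3), 59.8% at E23 (49.6 to 69.4), 69.3% at E24 (60.9 to 76.9) and 45.5% at E25 (28.1 to 63.6). The E20 and E25 intervals meet on this scale, and so do those of E24 and E25. The place of E16 differed by series: EVT was 2 of 12 such cells in the first and 3 of 4 in the second, where E25 was lowest at 42.3%. STB against its CTB progenitors, as a share of CTB and STB cells, lay between 28.8% at E24 (17.8 to 42.1) and 50% at E16 (28.2 to 71.8) on the 7 days with STB cells. By series it ran from 15.7% at E20 to 30% at E22 in the first. In the second it ran from 28% at E24 to 87.5% of 8 cells at E16, with a single such cell at E22, an STB cell. At E20 and at E23 the intervals of the series do not meet. The first and second series had 15.7% (7.02 to 28.6) and 50% (31.9 to 68.1) at E20. At E23 they had 20.6% (8.70 to 37.9) and 58.8% (40.7 to 75.4).

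As a share of all profiled cells rather than of trophoblast, the days stood in another order. STB was at 9.16% of all E20 cells, 10.3% at E23, 8.63% at E24 and 12.5% at E25 (6.41 to 21.3). It was at 2.96% at E16 and 0.962% at E22, and the absence at E21 allows up to 2.17% of all cells of that day. On this scale the interval of E16 (1.49 to 5.24), which had the highest STB share within trophoblast, was below those of E20 (5.96 to 13.3), E23 (6.90 to 14.6) and E25. The E16 value differed by series, with STB at 1.27% of first-series E16 cells (0.348 to 3.23) and 12.3% of second-series ones (5.08 to 23.7). In the second series E16 was above E18 (4.69%), E22 (1.01%), E24 (8.97%) and E21, which had no STB cell. It was below E20 (14.3%), E23 (16%) and E25 (17.5%), and its interval overlapped that of each of these days. Of all E16 cells, 55.5% came from plates 1 to 4, which held 1 trophoblast cell. Over both series CTB lay between 1.68% at E22 and 22.5% at E20, and EVT between 1.35% at E16 and 49.6% at E20. In the first series CTB was highest at E20 (28.7%) and EVT at E20 (38%), and in the second CTB at E25 (26.3%) and EVT at E24 (66.7%).

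The plates of a day show how far these shares vary between groups of cells handled together. At E20, 5 of the 6 plates lay close together for EVT and plate 5 above them. EVT stood at 56.25%, 57.1%, 59.5%, 57.5%, 73.3% and 57.7% in plates 1 to 6, which held 26 to 45 trophoblast cells each. EVT led in 6 of 6. CTB lay between 20% and 35% and STB between 6.67% and 21.4% over the same plates.

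Plates of E23 lay further apart. EVT was at 48.1% of 27 cells, 35% of 20, 50% of 14, 29.4% of 17, 77.4% of 31 and 25% of 20 in plates 1 to 6. It led in 3 of the 6 plates, CTB led in 2 and STB in 1. CTB, in the same order, was at 40.7%, 50%, 28.6%, 41.2%, 9.68% and 30%, and STB at 11.1%, 15%, 21.4%, 29.4%, 12.9% and 45%. Plate 5 combined the highest EVT with the lowest CTB share, and plate 6 had the highest STB share, with 9 of 20 cells.

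At E24, EVT was at 54% of 50 cells, 85.4% of 41 and 52.4% of 63 in plates 1 to 3. CTB was at 34%, 12.2% and 31.7%, and STB at 12%, 2.44% and 15.9%. Plate 2 held 35 EVT cells, 5 CTB cells and 1 STB cell. The identifiers put plates 1 and 2 in one set and plate 3 in another, and plate 1 was closer to plate 3 than to plate 2.

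Each of the 21 plates with at least 10 trophoblast cells was set against the other plates of its day. The intervals were apart for EVT in 2 plates, for CTB in 1 and for STB in 0. These were E23 plate 5, with 77.4% EVT (58.9 to 90.4) against 37.8% in the rest (28.2 to 48.1) and 9.68% CTB (2.04 to 25.8) against 38.8% (29.1 to 49.2), and E24 plate 2, with 85.4% EVT (70.8 to 94.4) against 53.1% (43.5 to 62.5). Both plates had the highest EVT share of their day in each DNA series, but E23 plate 5 stood well above the others in the first only. E23 plate 5 held 88.9% EVT among its first-series and 61.5% among its second-series trophoblast cells, and E24 plate 2 held 93.75% and 80%. The other E23 plates ran from 25% to 50% in the first series. In the second, E23 plate 1 was at 58.3% and plate 3 at 60%, close to plate 5. In DNA batch 16, which held both E24 plate 2 and E24 plate 3, EVT was at 80% of 25 cells and 63.3% of 30. In batch 21 the EVT share was 61.5% of 13 cells of E23 plate 5 and 3 of the 5 cells of E23 plate 3.

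**Figure D3:**
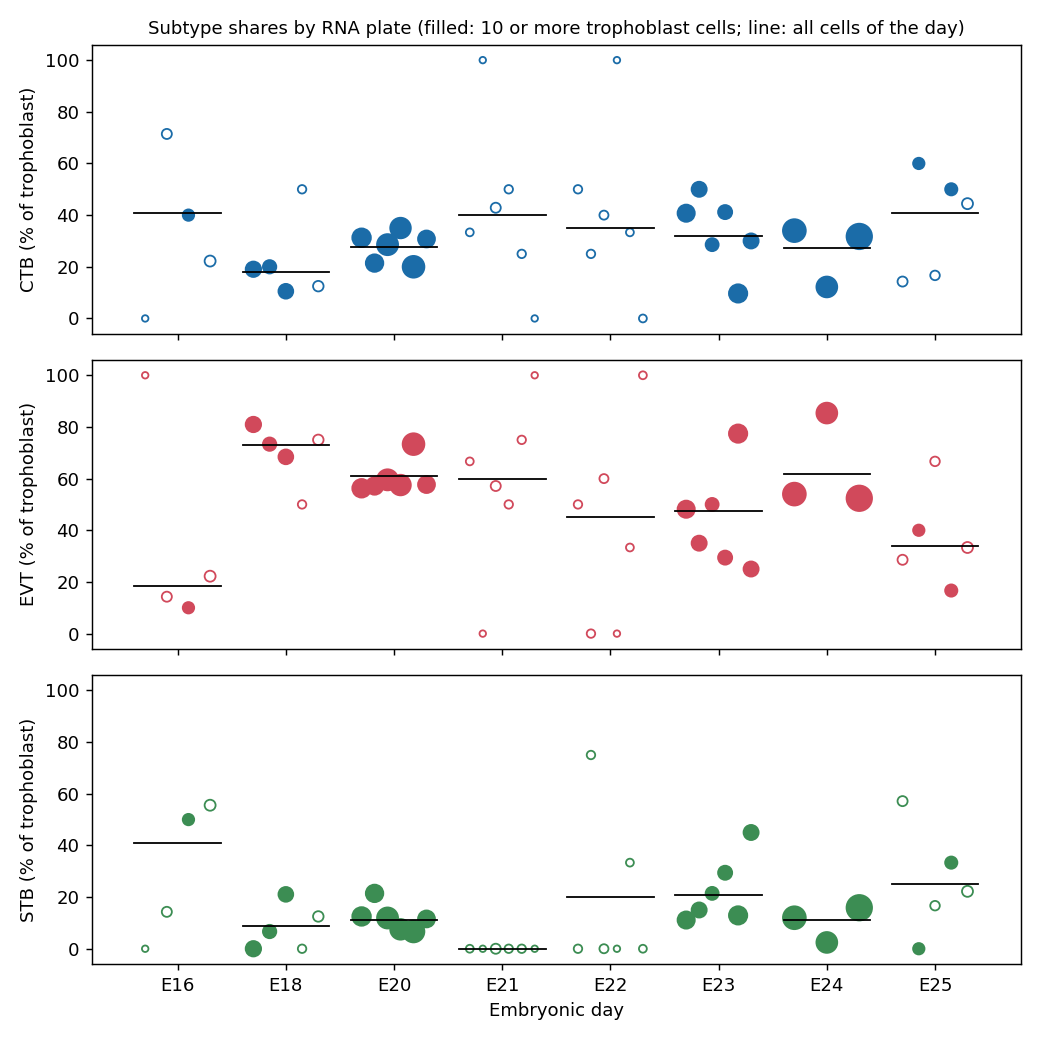
Share of trophoblast cells in percent that were CTB (top), EVT (middle) or STB (bottom) in each RNA plate, by embryonic day. Each circle is a plate, its area grows with its number of trophoblast cells, filled circles have at least 10, and the black line is the share over all cells of the day. For EVT, 1 plate each of E20 (73.3%), E23 (77.4%) and E24 (85.4%) lies above the other plates of its day.

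Plates of the remaining days were smaller. At E18 the 3 plates with at least 10 cells held 80.95%, 73.3% and 68.4% EVT, and EVT led in 4 of all 5, with 2 EVT and 2 CTB cells in the other. STB was absent from the 21 trophoblast cells of E18 plate 1 (exact upper bound 16.1%) and made up 4 of the 19 of plate 3. At E16, 26 of the 27 trophoblast cells came from plates 5, 6 and 7, and 1 EVT cell from plate 3. Plate 5 held 5 CTB, 1 EVT and 1 STB cell, plate 6 held 4, 1 and 5, and plate 7 held 2, 2 and 5. The E16 plates numbered 1 to 4 gave 55.5% of all E16 cells but only that 1 trophoblast cell, so the E16 composition describes 3 plates only.

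At E25, CTB led in 3 of 5 plates. Plate 2 held 6 CTB, 4 EVT and 0 STB cells, plate 4 held 6, 2 and 4, and plate 5 held 4, 3 and 2. EVT led in plate 3, with 4 of 6 cells, and STB in plate 1, with 4 of 7. Over the 6 plates of E21, with 1 to 7 trophoblast cells each, EVT outnumbered CTB in 4. At E22 the 4 STB cells came from 2 plates, 3 of them from plate 2.

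The next comparison set the DNA series against each other inside RNA plates that have trophoblast cells in both. Cells of such a plate share the day and the RNA plate, and differ in the DNA library. These 27 plates held 571 trophoblast cells, 51.8% of them in the first series. CTB made up 39.2% of first-series cells (33.6 to 45.005) and 21.1% of second-series cells (16.4 to 26.4), a difference of -18.1 points (95% Newcombe interval -25.3 to -10.6). EVT was at 50% (44.2 to 55.8) and 60% (53.9 to 65.8), a difference of 10 points (1.83 to 17.97). STB was at 10.8% (7.51 to 14.9) and 18.9% (14.5 to 24.05), a difference of 8.10 points (2.27 to 13.99). CTB was lower in the second series in 19 plates, higher in 6 and equal in 2. EVT was higher in 15 plates and lower in 8, and STB higher in 13 and lower in 7. These counts include plates with a single cell in 1 series. Only 15 of the 27 plates held at least 5 trophoblast cells in each series, and there the differences were -16.9 points for CTB, 8.91 for EVT and 8.04 for STB. Single days moved the differences over the 27 plates. The STB difference was 3.75 points without E23 (-2.54 to 10.1) and 12.7 without E24 (5.61 to 19.8). The EVT difference was 5.71 without E20 (-4.62 to 15.9), 9.13 without E24 (-0.466 to 18.5) and 15.3 without E23 (6.03 to 24.1). The CTB difference lay between -21.8 and -14.1 points when each day was left out. Over all plates of the days with both series, divided or not, the EVT difference was 7.15 points with an interval that holds 0 (-0.777 to 14.9).

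The subtypes can also be followed from their own side. Leaving out E18, 36.02% of CTB cells had their DNA library in the second series (29.1 to 43.4), against 52.9% of EVT cells (47.3 to 58.4) and 64.9% of STB cells (54.4 to 74.5). If the cells of each divided plate had been parted evenly, whatever their type, the second series would have held 30.1% CTB, 55.4% EVT and 14.5% STB. It held 21.1%, 60% and 18.9%. What parted the cells between the series was not tested.

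Single days show where this difference lies. At E20 CTB was at 39.8% in the first series (30.5 to 49.7) and 15.2% in the second (8.97 to 23.6), and it was lower in the second in 6 of 6 plates. EVT was at 52.8% (42.9 to 62.5) and 69.5% (59.8 to 78.1), higher in 5 plates and equal in 1. At E23 the intervals were apart for STB, with 7 of 70 first-series cells or 10% (4.12 to 19.5) and 20 of 59 second-series cells or 33.9% (22.1 to 47.4), and it was higher in the second series in 5 of 6 plates. CTB there was at 38.6% and 23.7%, a difference of -14.8 points (-29.6 to 1.30), lower in 4 of 6 plates, and EVT at 51.4% and 42.4%, a difference of -9.06 points (-25.4 to 8.05). Without E23 plate 5 the E23 differences were -23.9 points for CTB, -1.51 for EVT and 25.4 for STB. At E24 the intervals of all 3 subtypes overlapped, with CTB at 31.2% and 23.4%, EVT at 55.8% and 67.5%, and STB at 12.99% and 9.09%. Over all its plates, E16 had 10 CTB, 2 EVT and 4 STB cells in the first series and 1, 3 and 7 in the second. Of its first-series EVT cells, 1 came from plate 3, which is not divided. Over all plates of E25 the 8 first-series cells were 3 CTB, 4 EVT and 1 STB, and the 36 second-series cells were 15, 11 and 10. In the 2 divided plates of E25 the second-series cells were 7 CTB, 3 EVT and 1 STB. CTB there was at 37.5% in the first series (8.52 to 75.5) and 63.6% in the second (30.8 to 89.1). It was higher in the second in 2 of 2 plates, opposite in sign to the difference over all divided plates.

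**Figure D4:**
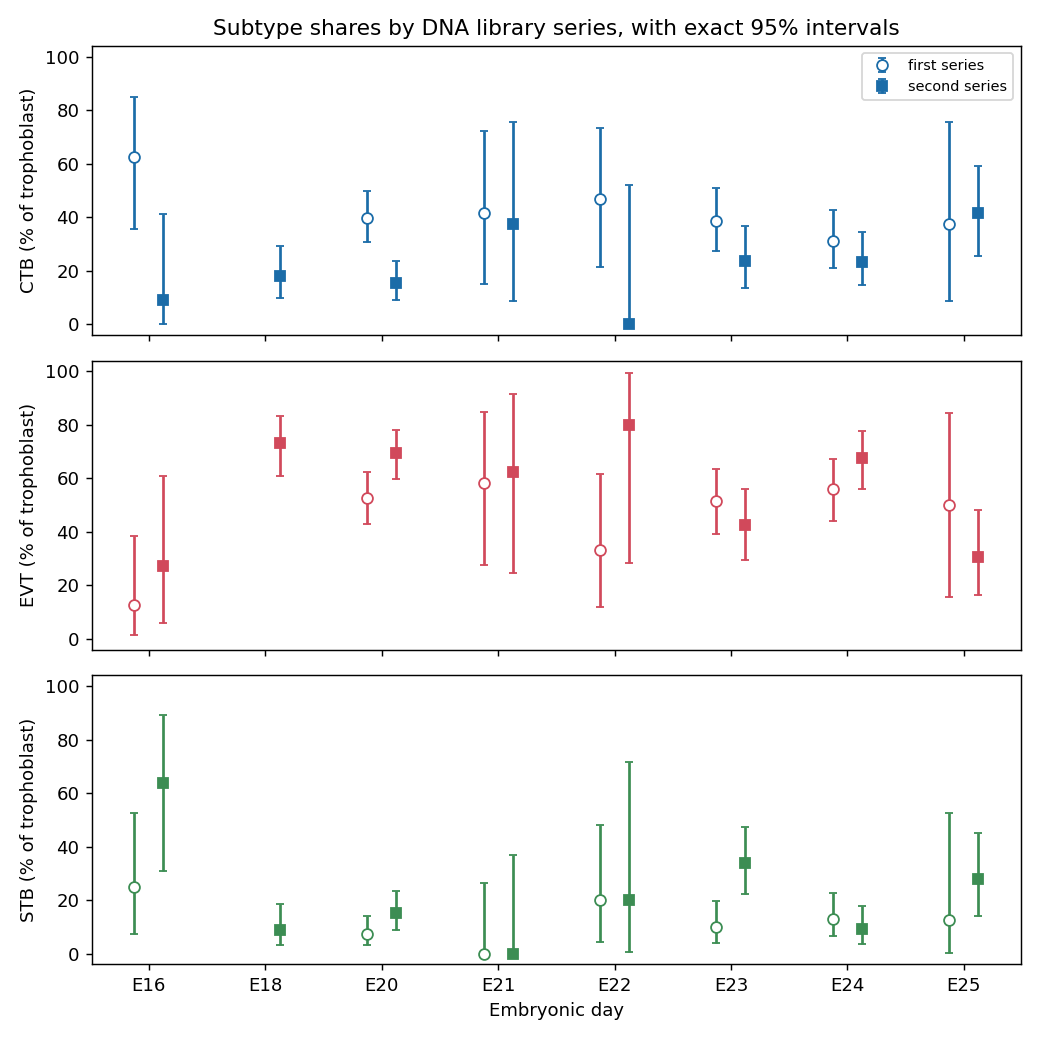
Share of trophoblast cells in percent that were CTB (top), EVT (middle) or STB (bottom) on each embryonic day, with open circles for the first and filled squares for the second DNA library series, and exact 95% intervals for counting error. CTB at E20 (39.8% and 15.2%) and STB at E23 (10% and 33.9%) have intervals that do not meet, and E18 has second-series cells only.

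Days were then compared inside each series, because the series differ. In the first series 3 of 21 EVT pairs were apart, all of them E16, at 12.5% (1.55 to 38.3), below E20, E23 and E24, and 0 of 21 pairs each for CTB and STB. In the second series 5 of 28 EVT pairs were apart. E25, at 30.6% (16.3 to 48.1), was below E18, E20 and E24, at 73.1%, 69.5% and 67.5%, and E23, at 42.4% (29.6 to 55.9), was below E18 and E20. STB had 5 pairs apart in that series: E16, at 63.6% of 11 cells (30.8 to 89.1), above E18, E20 and E24, and E23, at 33.9%, above E18 (8.96%) and E24 (9.09%). For CTB 1 pair was apart, with 15.2% at E20 and 41.7% at E25 (25.5 to 59.2). EVT at E23 in the first series was at 51.4%, beside 52.8% at E20 and 55.8% at E24. That value rests on E23 plate 5, which held 16 of the 36 first-series EVT cells of the day. Without it EVT at E23 was at 38.5% in the first series (25.3 to 52.98) and 36.96% in the second (23.2 to 52.5).

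Some DNA batches held trophoblast of more than 1 day and allow the days to be compared inside a batch, with at least 5 such cells a day. E20 and E25 met in 3 batches, and EVT was lower at E25 in 3 of 3, by 9.52 to 35.7 points. E23 and E25 also met in 3, where EVT was equal in 2 and higher at E25 by 43.9 points in batch 14. E18 and E25 met in 2, where EVT was at 68.4% and 77.8% at E18 and at 28.6% and 16.7% at E25. Both of those batches also had more STB at E25, 57.1% and 33.3% against 21.1% and 2.78%. E20 and E23 met in 5 batches. EVT was lower at E23 in 4 and higher in 1, batch 13, where 16 of 18 E23 cells were EVT, and STB was higher at E23 in 4. Those 18 cells were all of E23 plate 5. E20 and E24 met in 2 batches, with EVT higher at E24 in batch 10 and lower in batch 15. The E24 cells of batch 10 were all of E24 plate 2. E24 and E25 met in batch 16 only, with 70.9% EVT of 55 cells and 28.6% of 7. E16 met E20 in batch 18, with 28.6% EVT of 7 cells against 68.75% of 32, and E23 in batch 9, with 1 EVT cell of 6 against 4 of 8. In the other 5 pairs of days that met, each in 1 batch, EVT was higher on the later day in 4, by 0.758 to 28.9 points, and lower at E23 than at E18 by 13.9 points in the remaining one. These batch values rest on few cells each, down to 5. They often rest on 1 plate a day, and there plate and day cannot be told apart.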

How the data were processed

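The only file analysed was the table the authors deposited, with 1 line per cell and 3 text columns (RNA library, DNA library, cell type) and 0 numeric columns. The sources used here do not give the genome build, or how types were assigned, cells filtered or doublets treated. The submitters' processing notes list SAMtools 0.1.18, Bismark 0.7.6 and Trim Galore 0.4.4. Read depth was not analysed here.

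Each of the 1862 cells was matched to 1 sample through its DNA identifier, which equals the sample's description, and 0 were unmatched. No identifier occurred more than once. The day came from the labels, the RNA plate from the RNA identifier, and the DNA series from the DNA identifier. No cell was left out.

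Shares carry exact (Clopper-Pearson) 95% intervals (SciPy 1.17.1), and differences between series carry Newcombe intervals (statsmodels 0.14.6). Both cover counting error only and treat cells as independent, which cells of 1 embryo are not. No significance test was made. A count of 0 was given a limit of 3 cells of the total. Plates with at least 10 trophoblast cells were described singly. Days with under 30 were described by counts, with shares added, which are imprecise. The members, units and thresholds were chosen with earlier results of these data known. Alternatives were single series, equal plate or day weights, plates with enough cells, and leaving out each plate, batch or day.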

Additional observations from a re-analysis of the deposited data

Results flagged for a closer look

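Among the 6 plates of E20, the EVT share of plate 5, 73.3% of its 45 trophoblast cells, lay far from the others, which ran from 56.25% to 59.5%. Its gap to the nearest plate was large for its group's range by Dixon's rule at the 95% level, a gap that chance gives in about 5% of groups, and 6 groups of plates were looked at. The exact interval of plate 5 (58.1 to 85.4) overlaps that of each other plate of that day. In DNA batch 12, which held first-series cells of plates 4 and 5, EVT was at 37.5% of 16 cells in plate 4 and 70.8% of 24 in plate 5. Plate 4 had the lowest first-series EVT share of the day, and plate 1 the nearest to plate 5, at 56.25%. In the second series plate 5 did not stand out: EVT was at 76.2% there, 76.5% in plate 3 and 75% in plate 6.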

How the results depend on the processing

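No paired test was made: no model or test was fitted, and the labels carry no replicate number. The reported differences between series pool the cells of the divided plates, and their intervals do not use the pairing by plate. With equal weight per divided plate the differences were -21.3 points for CTB, 11.2 for EVT and 10.1 for STB. The series inside divided plates and the days inside batches were set side by side as a description. A further 110 alternative day shares kept 1 series or the plates with at least 10 trophoblast cells, weighted plates equally, or set STB aside. Of these, 94 stayed inside the exact interval of the reported share. At E20, E23 and E24 every plate held at least 10 such cells, so keeping only those plates changed nothing, and those values stay inside by construction. Of the shares that left out 1 plate or batch, all but 2 stayed inside. All these alternatives reuse cells of the reported share, and the intervals are wide on days with few cells. Staying inside is therefore a weak check. With the first series alone, CTB was at 62.5% at E16, 39.8% at E20 and 38.9% over all days, EVT at 52.8% at E20, 50% at E25 and 50.3% over all days, and STB at 10% at E23, 12.5% at E25 and 10.8% over all days. With the second series alone, CTB was at 9.09% at E16, 15.2% at E20, 0% of 5 cells at E22, 23.7% at E23 and 21.5% over all days, EVT at 69.5% at E20, 80% at E22 and 60.3% over all days, and STB at 63.6% at E16, 33.9% at E23 and 18.2% over all days. Days weighted equally gave 50.1% EVT over all days. With STB set aside, a choice made after seeing the data, EVT was at 68.8% at E20 and 59.8% at E23, higher by construction. Leaving out 1 plate or batch moved EVT at E23 to between 37.8% (plate 5) and 52.3%, and at E24 to between 53.1% (plate 2) and 68.1%. The CTB difference between series was -8.98 points against an even division within plates, also chosen after seeing the data and smaller by construction, since that division contains the second-series cells. The other 11 of 12 such values for the series differences of the 3 subtypes stayed inside the reported intervals. So did all values that left out 1 day or plate, but these too reuse the same cells. Leaving out 1 day still moved the STB difference to between 3.75 (E23) and 12.7 points (E24). It moved the EVT difference to between 5.71 (E20) and 15.3 (E23). Equal weights moved EVT at E16 to 36.6%, since 1 plate there holds a single cell. The number of trophoblast cells limits E16, E21, E22 and E25 most, where 1 cell is over 2% of the total.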
